A study of Mus musculus with 6 samples.

Results

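Cathepsins are proteases that work mainly in the acidic interior of lysosomes, where they break down proteins delivered by endocytosis and autophagy. They are made as inactive precursors, carried to lysosomes largely by mannose 6-phosphate receptors, and activated there by cleavage at low pH. In the liver they are made by hepatocytes and, abundantly, by Kupffer cells and other macrophages. The 10 genes described here were chosen by name from the 54320 genes of the deposited tables: *Ctsa*, *Ctsb*, *Ctsc*, *Ctsd*, *Ctse*, *Ctsh*, *Ctsk*, *Ctsl*, *Ctss* and *Ctsz*. By catalytic residue, 7 of them are cysteine proteases (*Ctsb*, *Ctsc*, *Ctsh*, *Ctsk*, *Ctsl*, *Ctss*, *Ctsz*), 2 are aspartic proteases (*Ctsd*, *Ctse*) and 1 is a serine carboxypeptidase (*Ctsa*).

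Liver RNA of 6 C57BL/6 mice, all 11 weeks old and fed for 3 weeks a diet that the labels call MCD, had been sequenced. The 3 libraries labelled HKO came from mice with HuRflox/flox alleles and Alb-Cre+/-, in which Cre recombinase is driven by the albumin promoter and so acts in hepatocytes. Macrophages, endothelial cells and other cells outside that lineage would keep HuR, an RNA-binding protein encoded by *Elavl1*. The 3 reference libraries, labelled flox, came from HuR flox/flox mice, so both groups carried the floxed alleles and the diet, and no group on another diet was analysed here. The labels describe separate samples and give neither litter nor batch, so p-values measure the spread between these samples.

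*Elavl1* itself was at 5.77, 4.28 and 4.91 FPKM (fragments counted per gene length and per library factor) in HKO 1, 2 and 3, against 3.51, 2.36 and 2.99 FPKM in flox 1, 2 and 3. The gene targeted by the knockout was therefore higher in every library labelled HKO, which goes against the label, and each direction below is between the labels. Whether these reads fall inside the deleted part of the gene was not tested. Libraries held 16769082 to 20633215 reads assigned to genes. The library factor by which the deposited FPKM divide was not this number. That factor was 20051900 to 21844900 in HKO libraries, above the assigned reads of each. In flox 1, 2 and 3 it was 18518300, 16093200 and 15321800, against 18329040, 18040015 and 18119468 assigned reads. Deposited FPKM were thus raised in flox relative to HKO, beside a division by assigned reads. Flox 2 stood apart: 16608 genes had a read there, where the remaining 5 libraries covered 19920 to 22067 genes, and its mitochondrial share was 2.26%, where theirs was 4.34% to 4.69%. Flox 3 decided many calls: without it 5575 genes passed the threshold, against 2 with all 6 libraries. Hepatocyte markers summed to 45020 to 58180 FPKM in HKO libraries and 44323 to 58138 FPKM in flox libraries, which fits the labelled tissue. *Alb* made up most of each sum, at 34748 to 45562 FPKM in HKO libraries and 30115 to 36357 FPKM in flox libraries. The other markers of that list varied more between libraries, such as *Cps1* at 122 to 1419 FPKM.

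No cathepsin passed the test between the genotype labels, and the 9 that could be tested all had lower fitted values in libraries labelled HKO. The test was limma on log2(FPKM + 0.5) with Benjamini-Hochberg adjustment over all 13787 genes that averaged 0.5 FPKM or more, at an adjusted p below 0.05. It called 0 of 9 cathepsins, beside 0.0145% of all tested genes in either direction and 0.00725% lower in HKO. The smallest adjusted p of a cathepsin was 0.167. At an unadjusted limma p below 0.05, 5 cathepsins were lower in HKO (*Ctsa*, *Ctsb*, *Ctsd*, *Ctss* and *Ctsz*), beside 10.8% of all tested genes in that direction. In 6 of the 10 cathepsins, these 5 and *Ctsh*, every HKO value lay below every flox value, beside 16.7% of all tested genes, and 31.9% of them did not overlap in either direction. Abundant genes leaned the same way: of the 3788 genes that averaged 10 FPKM or more, 68.1% were lower in HKO and 31% did not overlap in that direction, and 8 cathepsins belong to that class. In whole liver RNA, fewer cells of a type and less RNA per cell cannot be told apart. With 3 libraries against 3, an exact permutation test cannot give a p below 0.1, and all 6 stood at that value.

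Summed over the 10 genes, cathepsin transcripts reached 873, 804 and 855 FPKM in HKO 1, 2 and 3, against 1566, 1926 and 1270 FPKM in flox 1, 2 and 3. The groups did not overlap, and the sums averaged 844 ± 35.6 FPKM in HKO libraries and 1587 ± 328 FPKM in flox libraries (SD, n = 3 each; exact permutation test, two-sided, p = 0.1). Scaled to an equal total FPKM in each library, known as TPM, the difference was smaller. Cathepsins took 0.227 ± 0.0196% of all FPKM in HKO libraries and 0.317 ± 0.0505% in flox libraries (SD, n = 3 each, exact p = 0.1). Of all recovered reads they took 0.378 ± 0.0443% in HKO libraries and 0.505 ± 0.0731% in flox libraries (SD, n = 3 each, exact p = 0.2). Total FPKM was 350134 to 402169 in HKO libraries and 454792 to 553124 in flox libraries, so the TPM scale moved the median log2 difference of all tested genes to 0.34, against -0.0018 on the deposited scale. The cathepsins' median difference was -0.63 on the deposited scale and -0.26 on the TPM scale.

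**Figure D1:**
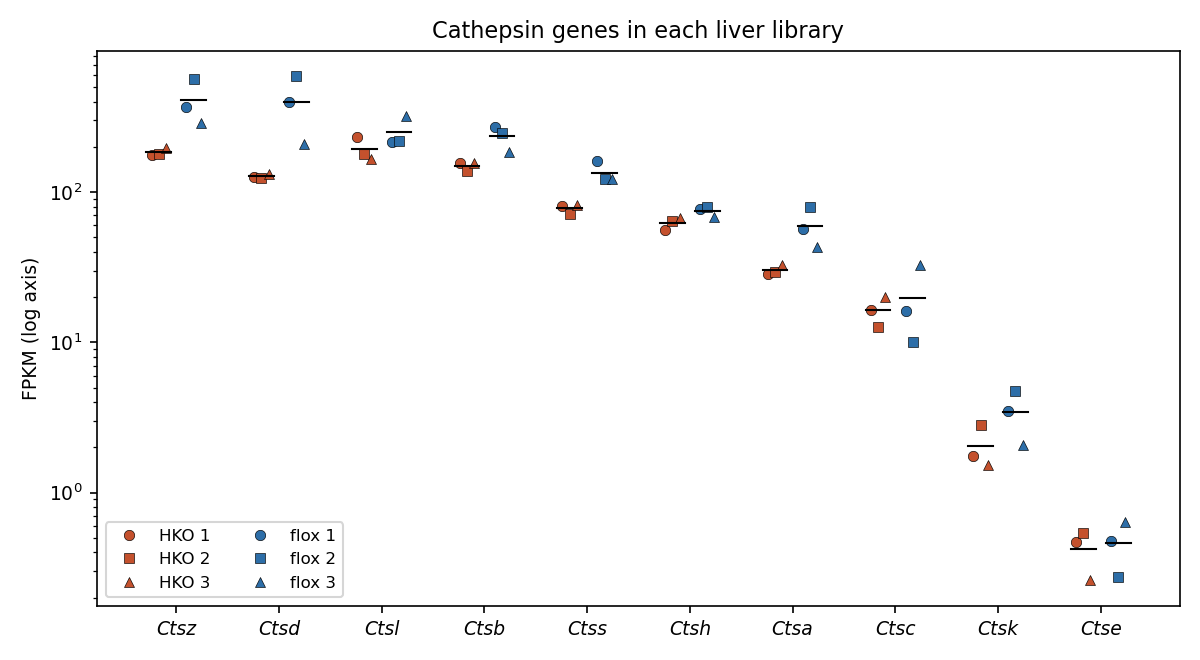
FPKM (log axis) of the 10 cathepsin genes in each library, with HKO libraries in orange to the left of flox libraries in blue; marker shapes give the replicate number and the bars are group means. *Ctsd*, at 124 to 133 FPKM in HKO libraries and 208 to 593 FPKM in flox libraries, shows the widest separation, while *Ctsc*, *Ctse*, *Ctsk* and *Ctsl* overlap between groups.

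Within libraries labelled HKO the order by FPKM was *Ctsl*, *Ctsz*, *Ctsb*, *Ctsd*, *Ctss*, *Ctsh*, *Ctsa*, *Ctsc*, *Ctsk* and *Ctse*, and only the neighbours *Ctsl* and *Ctsz* overlapped in range. Within flox libraries it was *Ctsz*, *Ctsd*, *Ctsl*, *Ctsb*, *Ctss*, *Ctsh*, *Ctsa*, *Ctsc*, *Ctsk* and *Ctse*, and each neighbouring pair among the leading 4 overlapped, as did *Ctsh* and *Ctsa*. *Ctsd* thus stood at place 4 in HKO libraries and place 2 in flox libraries. Levels between genes depend on the length each table uses. For *Ctsl* that length was 6489 bases, 3.29 times its shorter annotated coding transcript and 1.05 times its longer one of 6168 bases, and for *Ctsh* it was 4499 bases, 2.78 times its only coding transcript in GENCODE M21. The table lengths of *Ctsz* and *Ctsk* equal the transcript. The level of *Ctsh* per length may therefore be understated beside theirs, and that of *Ctsl* too where the shorter transcript is the one made, which was not tested. *Ctsd* varied by 3.55% between HKO libraries and by 48.2% between flox libraries (coefficient of variation, n = 3 each), the widest contrast in spread among the 10 genes.

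*Ctsd* encodes cathepsin D, the main aspartic endopeptidase of lysosomes (ENSMUSG00000007891, minus strand, GRCm38 chr7:142375911-142388038). It was at 126, 124 and 133 FPKM in HKO 1, 2 and 3, against 397, 593 and 208 FPKM in flox 1, 2 and 3. All HKO values sat close together below the lowest flox value, and flox 2 was the highest library. The means were 128 ± 4.52 FPKM in HKO libraries and 399 ± 192 FPKM in flox libraries (SD, n = 3 each). Its log2 fold change of -1.52 (SE 0.39) was the lowest of the 9 tested cathepsins and gave an adjusted p of 0.167 (limma); 119 of all tested genes lay lower still. Without flox 3 it was -1.92 with a limma adjusted p of 0.0147, and on the TPM scale it was -1.10. It stayed below 0 under every alternative, between -1.92 and -1.01.

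*Ctse*, the other aspartic member, encodes cathepsin E, an endosomal protease best known from stomach and immune cells (ENSMUSG00000004552, plus strand, chr1:131638306-131675505). It was at 0.472, 0.534 and 0.260 FPKM in HKO 1, 2 and 3, against 0.477, 0.274 and 0.638 FPKM in flox 1, 2 and 3. The groups overlapped, and 14 to 35 reads per library lay behind these values. *Ctse* fell under the filter on low values and is the member that was not tested.

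*Ctsa* encodes cathepsin A, a serine carboxypeptidase that also holds beta-galactosidase and neuraminidase 1 together in the lysosome (ENSMUSG00000017760, plus strand, chr2:164832873-164841032). Its levels were 28.3, 29.6 and 32.7 FPKM in HKO 1, 2 and 3, against 56.7, 79.7 and 43.2 FPKM in flox 1, 2 and 3. Again the HKO libraries were tight and low, and flox 2 was the highest. Means were 30.2 ± 2.26 FPKM in HKO libraries and 59.8 ± 18.4 FPKM in flox libraries (SD, n = 3 each), a log2 fold change of -0.93 (SE 0.27, limma adjusted p 0.184). On the TPM scale the groups still did not overlap, with 80.8, 80.4 and 81.3 TPM in HKO 1, 2 and 3, against 125, 144 and 88.0 TPM in flox 1, 2 and 3. Its partners *Glb1* and *Neu1* are on the list of processing genes and partners described further on.

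*Ctsz* encodes cathepsin Z, also called X, a cysteine carboxypeptidase that removes single residues (ENSMUSG00000016256, minus strand, chr2:174427493-174439039). It was at 175, 180 and 198 FPKM in HKO 1, 2 and 3, against 366, 570 and 289 FPKM in flox 1, 2 and 3. The groups did not overlap, and the libraries stood in the same order within flox as for *Ctsd* and *Ctsa*. Means were 185 ± 11.8 FPKM in HKO libraries and 408 ± 145 FPKM in flox libraries (SD, n = 3 each), with a log2 fold change of -1.09 (SE 0.29, limma adjusted p 0.175). *Ctsa*, *Ctsd* and *Ctsz* were the 3 cathepsins whose groups also did not overlap on the TPM scale, beside 4.24% of all tested genes that were lower without overlap on that scale.

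*Ctss* encodes cathepsin S, an endopeptidase of antigen-presenting cells that trims the invariant chain from class II molecules (ENSMUSG00000038642, plus strand, chr3:95526786-95556403). It was at 81.1, 71.9 and 81.7 FPKM in HKO 1, 2 and 3, against 160, 123 and 121 FPKM in flox 1, 2 and 3. No flox value came down to the HKO values, and here flox 1 was the highest. The means were 78.3 ± 5.52 FPKM in HKO libraries and 135 ± 22.1 FPKM in flox libraries (SD, n = 3 each), and the log2 fold change was -0.77 (SE 0.21, limma adjusted p 0.179). On the TPM scale the groups overlapped, with a log2 difference of -0.36.

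*Ctsb* encodes cathepsin B, an endopeptidase and dipeptidyl carboxypeptidase that hepatocytes make in quantity (ENSMUSG00000021939, plus strand, chr14:63122462-63145923). It was at 155, 138 and 156 FPKM in HKO 1, 2 and 3, against 273, 248 and 184 FPKM in flox 1, 2 and 3. The groups did not overlap, and flox 3 lay nearest to the HKO libraries. Means were 150 ± 10.3 FPKM in HKO libraries and 235 ± 45.7 FPKM in flox libraries (SD, n = 3 each; log2 fold change -0.63, SE 0.23, limma adjusted p 0.215). The value was close to 0 after quantile normalization, at -0.03.

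*Ctsl* encodes cathepsin L, a strong endopeptidase of the lysosome (ENSMUSG00000021477, minus strand, chr13:64359337-64370890). It was at 232, 180 and 165 FPKM in HKO 1, 2 and 3, against 215, 218 and 320 FPKM in flox 1, 2 and 3. HKO 1 lay above flox 1 and flox 2, so the groups overlapped, and flox 3 was the highest library. The log2 fold change was -0.37 (SE 0.26, limma adjusted p 0.411). It was 0.22 after quantile normalization and 0.05 on the TPM scale, so its direction depended on the scaling. Relative to the median of all tested genes on the TPM scale, it was -0.30.

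*Ctsh* encodes cathepsin H, an aminopeptidase (ENSMUSG00000032359, plus strand, chr9:90054152-90076089). It was at 55.8, 64.2 and 67.2 FPKM in HKO 1, 2 and 3, against 77.3, 80.1 and 68.6 FPKM in flox 1, 2 and 3. The groups were separated by a narrow gap between HKO 3 and flox 3. The log2 fold change was -0.27 (SE 0.20, limma adjusted p 0.422), and it was 0.14 on the TPM scale and 0.17 after quantile normalization. Set against the median of all tested genes on the TPM scale, it was -0.20.

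*Ctsc* encodes cathepsin C, a dipeptidyl peptidase that activates serine proteases of neutrophils and cytotoxic lymphocytes (ENSMUSG00000030560, plus strand, chr7:88278085-88310888). It was at 16.4, 12.7 and 19.9 FPKM in HKO 1, 2 and 3, against 16.1, 10.1 and 32.9 FPKM in flox 1, 2 and 3. The flox libraries spanned the whole HKO range, with flox 2 the lowest of all and flox 3 the highest. The log2 fold change was -0.12 (SE 0.43, limma adjusted p 0.875), and without flox 3 it was 0.32. *Ctsc* was the only cathepsin whose lowest library was a flox library.

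*Ctsk* encodes cathepsin K, known best as the collagen-degrading protease of osteoclasts (ENSMUSG00000028111, plus strand, chr3:95499256-95509362). It was at 1.75, 2.82 and 1.51 FPKM in HKO 1, 2 and 3, against 3.50, 4.73 and 2.07 FPKM in flox 1, 2 and 3. HKO 2 lay above flox 3, so the groups overlapped, and the log2 fold change was -0.61 (SE 0.34, limma adjusted p 0.320).

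Leaving out flox 3 put 6 cathepsins past the threshold, all lower in HKO, beside 19.4% of all tested genes called in that direction in the same fit. Their limma adjusted p-values were 0.0147 for *Ctsd*, 0.0156 for *Ctsz* and *Ctsa*, 0.0178 for *Ctsb*, 0.0209 for *Ctss* and 0.0439 for *Ctsk*. When each library's trend with gene length was removed as well, 4 of them stayed past it, beside 17.3% of all tested genes, and the adjusted p was 0.151 for *Ctss* and 0.161 for *Ctsk*. These calls rest on only 2 flox libraries. No cathepsin passed when any of the other libraries was left out in its place. A fit that weights each library by its fit to the rest called 7 cathepsins, beside 27.8% of all tested genes lower in HKO, and its weights were 4.75 for flox 1, 0.172 for flox 2 and 0.108 for flox 3.

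**Figure D2:**
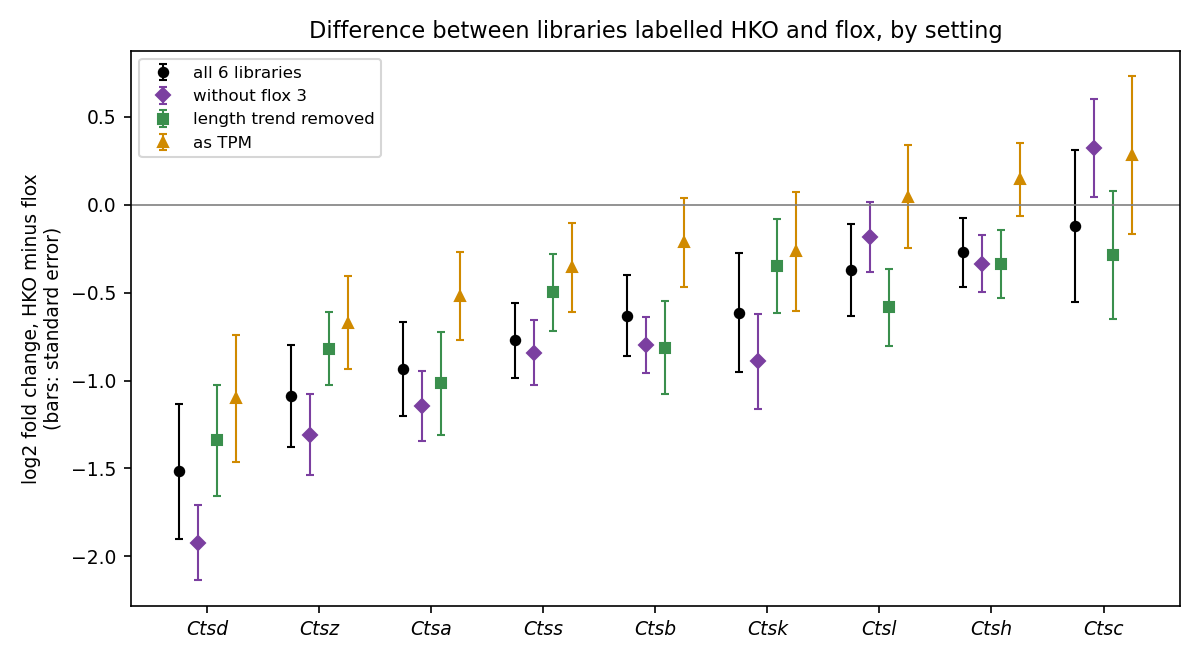
Log2 fold change, HKO minus flox, of the 9 tested cathepsins on the log2(FPKM + 0.5) scale, with bars for the standard error, from all 6 libraries, without flox 3, after removal of the gene length trend, and as TPM. *Ctsd*, *Ctsz*, *Ctsa*, *Ctss*, *Ctsb* and *Ctsk* lie below 0 in all 4 settings, while *Ctsl*, *Ctsh* and *Ctsc* lie above 0 as TPM and *Ctsc* also without flox 3. As TPM the median of all tested genes was 0.34.

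Ratios between cathepsins within a library are not changed by a factor common to all genes of that library, but they do change under quantile normalization or removal of the length trend. Of 36 pairs among the 9 tested genes, 9 had ratios that did not overlap between groups, which is 25% beside 30.5% of all pairs of tested genes, so cathepsin ratios separated the groups no more often than other pairs did. *Ctsd* over *Ctsh* was 2.27, 1.93 and 1.97 in HKO 1, 2 and 3, against 5.13, 7.40 and 3.03 in flox 1, 2 and 3. *Ctsd* over *Ctsb* was 0.815, 0.897 and 0.848 in HKO libraries, against 1.45, 2.39 and 1.13 in flox libraries. By the table lengths, cathepsin D transcripts were thus fewer than cathepsin B transcripts in every HKO library and more in every flox library. Those lengths were 1.28 times the annotated transcript for *Ctsb* and 1.11 times for *Ctsd*. The order in flox 3, with its ratio of 1.13, therefore depends on the lengths used. *Ctsz* over *Ctsa* kept a narrow range, at 6.20, 6.10 and 6.05 in HKO 1, 2 and 3, against 6.46, 7.16 and 6.69 in flox 1, 2 and 3. The order within this pair turned with the processing: the log2 fold changes of *Ctsz* and *Ctsa* were -0.52 and -0.57 after quantile normalization, and -0.82 and -1.02 with the length trend removed. *Ctsb* over *Ctss* was 1.91, 1.92 and 1.91 in HKO libraries and 1.70, 2.02 and 1.52 in flox libraries, and overlapped.

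**Figure D3:**
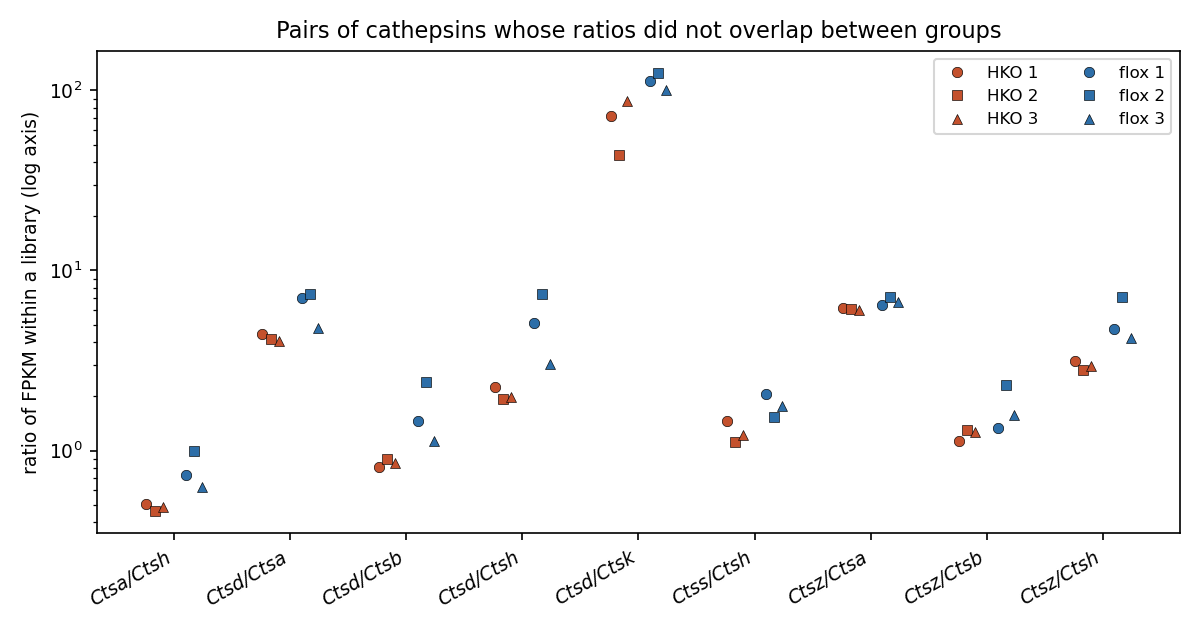
Ratio of FPKM within a library (log axis) for the 9 pairs of cathepsins whose ratios did not overlap between groups, with HKO libraries left of flox libraries; marker shapes give the replicate number. *Ctsd* over *Ctsh* runs from 1.93 to 2.27 in HKO libraries and from 3.03 to 7.40 in flox libraries. Each pair was turned so that the gene relatively lower in HKO is the numerator, so the common direction is set by the drawing.

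Promoter sequences were looked at for letters known to bind regulators of lysosomal and myeloid genes. RefSeq promoter windows (GRCm38.p6, 250 bases before to 50 after a start) were matched for 7 of the 10 genes, with 8 windows in all, since *Ctsa* has a pair of starts. CACGTG, the palindromic core of the element bound by TFEB and related factors at lysosomal genes, was in 3 of the 8 windows, beside 7.15% of the 32851 windows of all genes. *Ctsd* and the inner of the *Ctsa* starts held 2 copies each, beside 0.594% of all windows with at least 2. The *Ctsa* window at the gene start of the deposited table held 0. Stretches of these windows of *Ctsd*, *Ctsa* and *Ctsl* are shown because they hold these letters, each 5′ to 3′ on the gene's strand with CACGTG in capitals. They come from chr7:142387888-142388077 (minus strand), chr2:164833713-164833792 (plus strand) and chr13:64370711-64370770 (minus strand).
Ctsd: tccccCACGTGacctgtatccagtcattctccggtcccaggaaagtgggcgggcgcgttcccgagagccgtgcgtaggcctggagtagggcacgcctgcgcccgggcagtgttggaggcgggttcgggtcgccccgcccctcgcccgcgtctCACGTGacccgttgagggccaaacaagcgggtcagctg
Ctsa: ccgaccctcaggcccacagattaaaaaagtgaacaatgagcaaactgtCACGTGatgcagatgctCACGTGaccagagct
Ctsl: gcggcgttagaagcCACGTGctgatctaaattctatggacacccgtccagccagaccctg
The RefSeq starts used here lie 211 bases inside the gene of the deposited table for *Ctsd*, 900 bases inside it for *Ctsa* and 370 bases inside it for *Ctsl*. In *Ctsa* the copies begin 12 bases before the start and 6 bases after it, and in *Ctsd* they begin 245 and 98 bases before it. TCACGTG, searched on both strands and overlapping CACGTG, was in 2 of the 8 windows, beside 3.77% of all windows. *Ctsd* and *Ctsa* did not overlap between groups on the TPM scale, *Ctsl*, which also holds CACGTG, overlapped on both scales, and *Ctsz*, which did not overlap on either, has no CACGTG in its window. A match of letters is a description and does not show that a factor was bound.

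GAGGAAGT, a form of the letters bound by the myeloid factor PU.1, was searched on both strands and was in the windows of *Ctss* and *Ctsc*, 2 of 8, beside 3.20% of all windows. Both matches are on the opposite strand and read ACTTCCTC, in capitals below. The stretches come from chr3:95526706-95526805 for *Ctss* and chr7:88277905-88277984 for *Ctsc*, both on the plus strand.
Ctss: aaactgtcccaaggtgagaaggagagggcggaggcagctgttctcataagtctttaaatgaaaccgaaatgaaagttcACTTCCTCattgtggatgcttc
Ctsc: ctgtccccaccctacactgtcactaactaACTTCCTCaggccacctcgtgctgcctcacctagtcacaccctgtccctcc
The match begins 2 bases before the start in *Ctss* and 151 bases before it in *Ctsc*. The levels of these 2 genes did not run together: flox 1 was the highest library for *Ctss* and flox 3 for *Ctsc*. The shorter GGAAGT, which GAGGAAGT contains, was in 4 of 8 windows, beside 23.8% of all windows, and GGGCGG, the core bound by Sp1, was in 4 of 8, beside 35.7%.

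HuR is known to bind U-rich and AU-rich letters, often in 3′ UTRs, so the annotated 3′ UTRs of GENCODE M21 were searched for ATTTA on the gene's strand. The motif was in 5 of the 10 cathepsins (*Ctsb*, *Ctsc*, *Ctse*, *Ctsk*, *Ctsl*), beside 66.0% of the 11455 tested genes with a 3′ UTR. It was absent from the annotated 3′ UTRs of *Ctsa*, *Ctsd*, *Ctsh*, *Ctss* and *Ctsz*. Those 5 are among the 6 genes whose groups did not overlap, and *Ctsb* is the sixth, with 2 copies. *Ctsl* had the most, with 4 copies in a 3′ UTR of 4761 bases. The 3′ UTRs of *Ctss*, *Ctsh*, *Ctsz* and *Ctsd* had 218, 332, 379 and 660 bases, below the median of 960 for tested genes, and that of *Ctsa* had 1798. *Ctsk* and *Ctse*, with 440 and 560 bases, held 2 copies each. The share of tested genes was not matched for length. The longer TATTTAT was found once, in *Ctsb*, beside 26.9% of those tested genes.

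The other cathepsin genes, the list of inhibitors with their relatives, and the processing partners had mostly lower values in HKO libraries as well. None of them passed the test. Of the 15 other cathepsin genes and relatives, 6 were tested, 5 were lower and 1 higher (*Ctso*), with a median log2 fold change of -0.56. *Ctsf*, a cysteine cathepsin, was at 11.6, 14.5 and 14.8 FPKM in HKO 1, 2 and 3, against 19.5, 29.0 and 17.7 FPKM in flox 1, 2 and 3. *Ctsw*, expressed in cytotoxic lymphocytes, and *Ctsj*, a placental cathepsin, gave -0.73 and -1.28 (limma adjusted p 0.442 and 0.282), and 8 genes of the list were at 0 in all libraries. *Ctsj* was at 0.0350, 0.339 and 0.0964 FPKM in HKO 1, 2 and 3, against 0.341, 0.567 and 3.80 FPKM in flox 1, 2 and 3. *Tinag* was at 2.37 FPKM in flox 1 and below 0.5 FPKM in every other library. Both met the filter on low values only through 1 flox library, so the filter itself favoured lower values in HKO. The count and median of this list include both.

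The list of cathepsin inhibitors and relatives of such inhibitors was lower in 7 of 8 tested genes, with a median log2 fold change of -0.81. Of the 8, 5 were lower without overlap, beside 16.7% of all tested genes and 31% of those averaging 10 FPKM or more. *Cst3*, which encodes the secreted inhibitor cystatin C, was at 141, 132 and 123 FPKM in HKO 1, 2 and 3, against 248, 399 and 176 FPKM in flox 1, 2 and 3. *Kng1*, which encodes kininogen, a plasma protein from hepatocytes with cystatin domains, was at 475, 510 and 646 FPKM in HKO libraries, against 887, 873 and 859 FPKM in flox libraries. *Fetub*, which encodes fetuin B and is listed only as a cystatin relative, gave -1.12 (SE 0.26, limma adjusted p 0.160). The transcripts of the proteases and of several of their inhibitors were thus both lower in HKO libraries, in values and not in calls.

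Processing genes and partners were lower in all 9 tested, with a median of -0.64 as deposited and -0.23 on the TPM scale, and 5 were lower without overlap, beside the same 16.7% and 31%. *Grn*, which encodes progranulin, a lysosomal protein cut by cathepsins, was at 64.9, 62.5 and 65.8 FPKM in HKO 1, 2 and 3, against 153, 187 and 149 FPKM in flox 1, 2 and 3. The separation of its groups was wide, with a log2 fold change of -1.32 (SE 0.20), and the limma adjusted p was 0.122. *Psap*, the precursor of saposins, was at 205, 201 and 209 FPKM in HKO libraries, against 490, 497 and 361 FPKM in flox libraries (log2 fold change -1.12, limma adjusted p 0.157). *Lgmn*, the asparaginyl protease that cuts cathepsin precursors, was at 53.8, 48.2 and 54.4 FPKM in HKO libraries, against 90.5, 66.0 and 90.6 FPKM in flox libraries.

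The receptors and enzymes that tag and carry lysosomal proteins showed no common direction. Of 10 tested genes for mannose 6-phosphate and sortilin sorting, 6 were lower and 4 higher, with a median of -0.11 and none called. *Igf2r*, the large mannose 6-phosphate receptor, was at 7.75, 7.74 and 7.92 FPKM in HKO 1, 2 and 3, against 5.55, 2.61 and 4.06 FPKM in flox 1, 2 and 3. It was higher in every HKO library (log2 fold change 0.91, SE 0.28, limma adjusted p 0.192). *Gnptg*, a subunit of the enzyme that makes the tag, and *Lrp1*, an endocytic receptor, gave -0.52 and -0.50 (adjusted p 0.211 and 0.250).

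Among other lysosomal genes, medians lay closer to 0 than those of the cathepsins. The proton pump, which acidifies the lysosome, had 13 of 17 tested genes lower, with a median of -0.42. Of the 17, 8 were lower without overlap, beside 16.7% of all tested genes and 31% of those averaging 10 FPKM or more. Among them were *Atp6v0a1*, *Atp6v0d1* and *Atp6v1g1* at -0.72, -0.74 and -0.62. Lysosomal membrane genes were lower in 15 of 20, with a median of -0.21, and 8 were lower without overlap, beside the same shares. *Laptm5*, a membrane protein of blood cells, gave -1.30, *Tmem192* gave -0.71 and the channel gene *Mcoln1* gave -0.62. Hydrolases other than cathepsins were lower in 21 of 33, with a median of -0.41. Of these hydrolases 16 were lower without overlap and 1 was higher, beside 16.7% and 15.3% of all tested genes. Of genes averaging 10 FPKM or more, 31% were lower without overlap. *Arsa*, which encodes arylsulfatase A, was at 5.54, 4.90 and 5.97 FPKM in HKO 1, 2 and 3, against 18.3, 14.9 and 14.6 FPKM in flox 1, 2 and 3 (log2 fold change -1.46, limma adjusted p 0.121). *Gaa*, acid alpha-glucosidase, gave -0.74, and *Ids*, iduronate 2-sulfatase, gave 1.28 the other way.

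The list called MiT/TFE here holds the factors *Tfeb*, *Tfe3*, *Mitf* and *Tfec*, which control lysosomal genes. Its other genes are *Flcn*, *Fnip1*, *Rragc*, *Rragd*, *Mtor* and *Lamtor1* to *Lamtor5*, which encode no such factor. It had 7 lower and 7 higher of 14 tested, with a median of -0.09 that mostly describes these other genes. The factors *Tfeb* and *Tfe3* gave -0.82 and -0.37, and *Mitf* and *Tfec* gave 0.18 each. *Tfeb* was at 1.68, 1.83 and 2.14 FPKM in HKO 1, 2 and 3, against 3.71, 6.25 and 2.11 FPKM in flox 1, 2 and 3, and overlapped through flox 3. *Lamtor4* and *Lamtor5*, subunits of the Ragulator complex on the lysosomal surface, gave -0.99 and -0.64. Autophagy genes were lower in 12 of 17, with a median of -0.25, and *Map1lc3b*, *Gabarap* and *Gabarapl1*, which encode proteins of the autophagosome membrane, gave -1.23, -0.75 and -0.90. Against these medians stands -0.0018 for all tested genes and -0.31 for the genes averaging 10 FPKM or more. On the TPM scale the median of all tested genes was itself 0.34, and every list median given here lay below it. The medians of the sorting, membrane, MiT/TFE and autophagy lists were 0.24, 0.18, 0.27 and 0.12 on that scale. Those of the pump and the other hydrolases were -0.03 and -0.0095. Those of the other cathepsins, the inhibitors and class II processing were -0.29, -0.40 and -0.96.

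**Figure D4:**
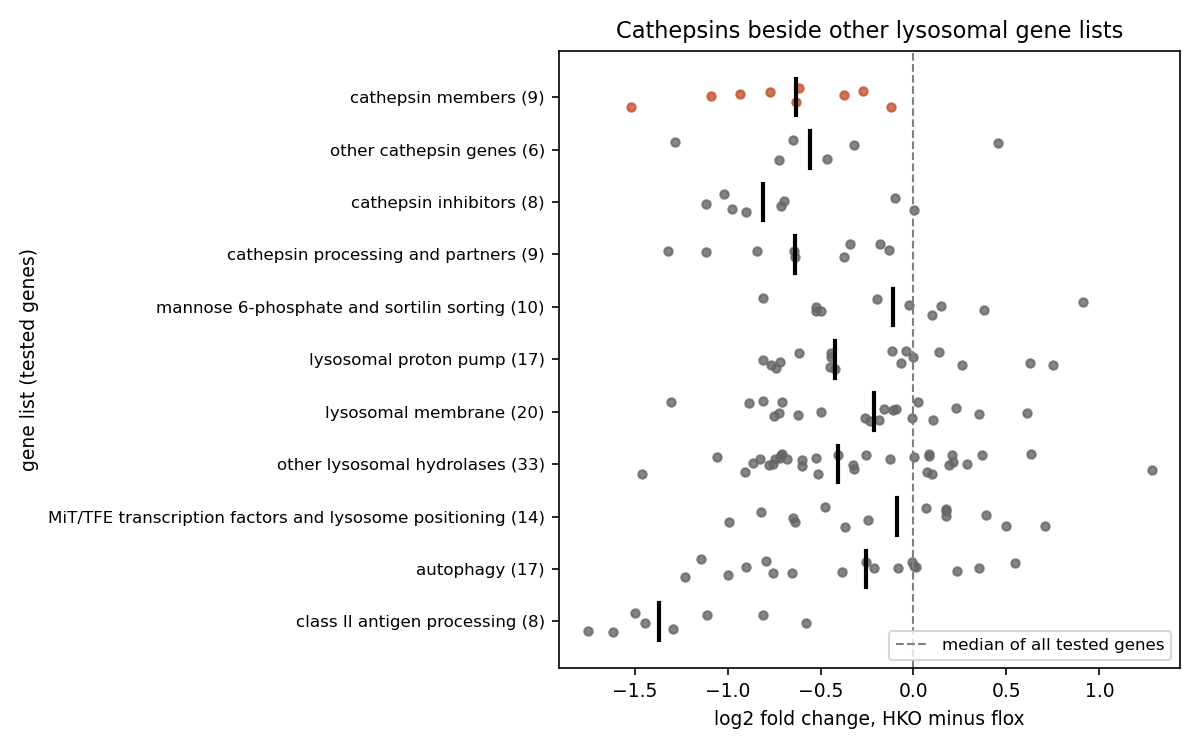
Log2 fold change, HKO minus flox, of each tested gene (points) in the cathepsin list (orange) and 10 lists of related genes (grey), with the median of each list as a black bar and the median of all tested genes as a dashed line. The cathepsin points all lie below 0, between -1.52 and -0.12, and the sorting and MiT/TFE lists straddle 0.

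Class II antigen processing, in which cathepsin S takes part, had 8 of 8 tested genes lower with a median of -1.37, but no gene without overlap. *H2-Oa*, 1 of the 8, averaged 0.266 FPKM in HKO libraries and 1.02 FPKM in flox libraries, and met the filter on low values through flox. *Cd74*, the invariant chain, was at 106, 78.4 and 81.1 FPKM in HKO 1, 2 and 3, against 329, 779 and 75.9 FPKM in flox 1, 2 and 3. Flox 3 lay below every HKO library, unlike its value of *Ctss*. *H2-DMa*, which helps load peptides, and *H2-Eb1*, a class II chain, gave -1.75 and -1.50 (limma adjusted p 0.250 and 0.303). Of the serine proteases that cathepsin C activates, only *Prtn3* and *Gzma* were tested, with overlapping groups and values of 0.22 and -0.08.

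Most tested markers of macrophages and neutrophils were lower alongside the cathepsins, and none of them passed the test. Kupffer cell markers were lower in 8 of 9 tested genes, and their FPKM summed to 473 to 756 in HKO libraries and 915 to 1897 in flox libraries. General macrophage markers were lower in 6 of 9, summing to 211 to 255 FPKM in HKO libraries and 305 to 616 FPKM in flox libraries. *Lyz2* was a large part of these sums, at 126 to 139 FPKM in HKO libraries and 172 to 412 FPKM in flox libraries. *Adgre1*, *Cd163* and *Mertk* were higher, at 0.06, 0.76 and 0.30, with overlapping groups. *Adgre1* averaged 12.9 FPKM in HKO libraries and 12.4 FPKM in flox libraries. Markers of recruited or lipid-associated macrophages were lower in 9 of 10 tested genes, with overlapping sums of 129 to 265 FPKM in HKO libraries and 150 to 293 FPKM in flox libraries, and *Trem2* stayed below 0.5 FPKM in all. *Spp1*, on both this list and the cholangiocyte list, was at 124, 220 and 88.1 FPKM in HKO 1, 2 and 3, against 58.2, 47.4 and 35.01 FPKM in flox 1, 2 and 3. Without *Spp1*, the other 10 recruited macrophage markers summed to 40.6 to 44.1 FPKM in HKO libraries and 115 to 235 FPKM in flox libraries, with no overlap. Neutrophil markers were lower in 4 of 4 tested genes, and the whole list summed to 4.36 to 6.28 FPKM in HKO libraries and 24.8 to 54.2 FPKM in flox libraries. Of the untested ones, *Ly6g* was at 0 in every library. *Mpo* was at 0 in all HKO libraries and in flox 3, with 3 and 12 reads in flox 1 and 2. *Elane* went the other way, averaging 0.147 FPKM in HKO libraries and 0.0587 FPKM in flox libraries, and *Cxcr2* averaged 0.111 and 0.574 FPKM. *Retnlg*, 1 of the 4, averaged 0.477 FPKM in HKO libraries and 4.21 FPKM in flox libraries, and met the filter on low values through flox. Cholangiocyte markers went the other way, at 102 to 248 FPKM in HKO libraries and 41.2 to 68.4 FPKM in flox libraries, but *Spp1* carried most of that sum. Without it the other 5 cholangiocyte markers overlapped, at 14.0 to 27.7 FPKM in HKO libraries and 6.19 to 17.7 FPKM in flox libraries. The sums of dendritic cell, B cell, T or NK cell, sinusoidal endothelial cell, stellate cell and cell cycle genes overlapped between groups. Within flox, the Kupffer cell sum was highest in flox 2 and lowest in flox 3, as were *Ctsd*, *Ctsz* and *Ctsa*. Among single Kupffer cell markers, *C1qa*, *C1qb*, *C1qc* and *Marco* had this order and the others did not. *Vsig4* and *Timd4* were highest in flox 3, *Cd5l* and *Folr2* were highest in flox 1, and *Clec4f* was lowest in flox 1. The part of these cells in the cathepsin values was not tested.

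**Figure D5:**
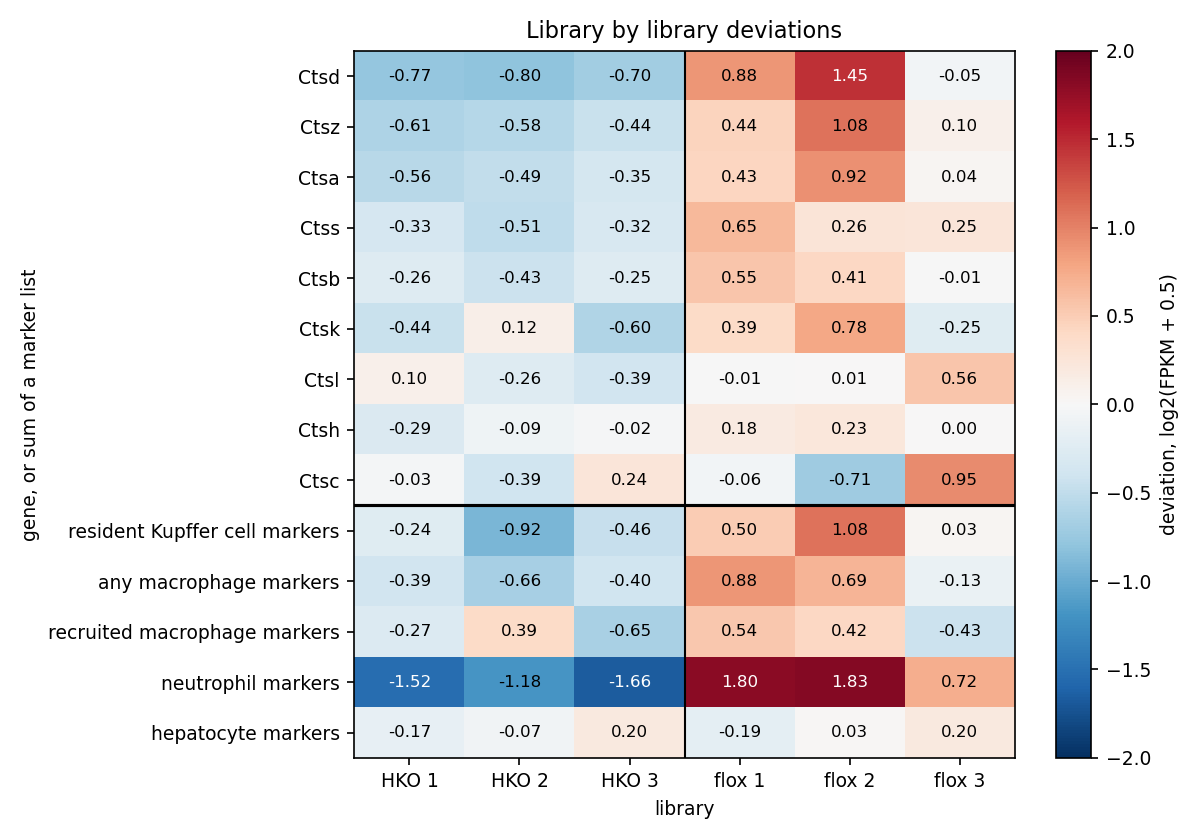
Deviation of each library from the mean of the 6 libraries on the log2(FPKM + 0.5) scale, for the 9 tested cathepsins and the summed markers of 5 cell types, with HKO libraries left of the black line. *Ctsd* runs from -0.80 in HKO 2 to 1.45 in flox 2, the Kupffer cell sum from -0.92 in HKO 2 to 1.08 in flox 2, and the hepatocyte sum stays between -0.19 and 0.20. The hepatocyte sum is mostly *Alb*, and the other markers of that list varied more between libraries.

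The libraries in which each cathepsin peaked differed. Flox 2 was the highest library for 5 of the 10 genes, flox 3 for 3 and flox 1 for 2, and no HKO library was the highest for any. Likeness between genes was measured over the 6 libraries as the root mean square difference of log2(FPKM + 0.5) values centred on each gene's mean. The genes most like *Ctsa* were *Plbd2* (0.0581) and *Nop10* (0.0598), and its nearest cathepsin was *Ctsz* (0.0896), the closest pair of members. For *Ctsz* the nearest were *Map2k2* (0.0521) and *Grina* (0.0535), and for *Ctsd* they were *Pth1r* (0.127) and *Irf7* (0.132). *Ctss* was nearest to *Mnd1* (0.0394) and *Tmem192* (0.0882), and *Ctsb* to *Csk* (0.0684) and *Tspan15* (0.0791). *Ctsb* and *Ctss* were each other's nearest cathepsin, at 0.138. *Ctsl* was nearest to *Tom1l2* (0.0755) and *Sap18b* (0.104), *Ctsh* to *Nomo1* (0.0422) and *Alg5* (0.0498), *Ctsc* to *Btg2* (0.0494) and *Klf1* (0.102), and *Ctsk* to *Fads3* (0.113) and *Stap2* (0.118). *Ctsc* was the farthest from any other cathepsin, at 0.426 from *Ctsl*. All these values share the same 6 libraries and are descriptions.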

How the data were processed

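Liver RNA was sequenced from 3 mice labelled HKO and 3 labelled flox. The authors deposited FPKM values, 1 table per group, per the file headers. Tools and build named in the submitters' processing notes are TopHat2, HTSeq 0.6.1 and GRCm38.p6, and whether reads were counted by strand is not given in the sources used here. Values times gene length gave whole reads for 100% of values (tolerance 0.01 of a read), from which depths were taken. All 6 per-sample columns were used.

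Genes averaging 0.5 FPKM or more over all libraries were tested as log2(FPKM + 0.5) with limma 3.58.1 in R 4.3.3 (trend, two-sided, Benjamini-Hochberg, threshold 0.05), a scale that understates changes of low genes. Fold changes are HKO minus flox. The code was tested on simulated data. The cathepsins and gene lists were chosen with earlier results of these data known. The text names all 10 members and, of each pathway list, the 3 tested genes with the smallest p where none passed. It also gives marker sums and the 2 protein-coding genes most like each member. Added after values were seen were *Ctso*, *Tinag*, *Glb1*, *Neu1*, *H2-Oa*, *Alb*, *Cps1*, *Spp1*, *Trem2*, *Retnlg*, *Ly6g* and *Mpo*. The single Kupffer cell markers, *Adgre1*, *Cd163*, *Mertk*, *Lyz2*, *Elane*, *Cxcr2*, *Tfe3*, *Mitf* and *Tfec* were also added then. Lists were described by counts and medians. Alternatives covered pseudocount, filter, scaling, moderation, gene length trend, library weights, replicate block and leaving libraries out. Promoters are from RefSeq and 3′ UTRs from GENCODE M21. Figures used matplotlib 3.10.9.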

Additional observations from a re-analysis of the deposited data

How the results depend on the processing

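Over the 9 tested cathepsins and 22 alternatives, 171 of 198 fold changes kept their direction and their side of the threshold, 17 kept their direction and passed it, and 10 changed sign. *Ctsc* was 0.034 after quantile normalization, 0.28 as TPM, 0.015 with library weights, and -0.51 (without flox 2) to 0.32 (without flox 3) when single libraries were left out, with 0.043 without HKO 2 and 0.069 without flox 3 with the length trend removed. *Ctsh* was 0.17 and *Ctsl* 0.22 after quantile normalization, and they were 0.14 and 0.045 as TPM. The median of all tested genes was 0.34 as TPM, and *Ctsc*, *Ctsh* and *Ctsl* all lay below it. The cause of the sign changes was not tested. The count of cathepsins called, 0 in the reported fit, was 7 with library weights and 4 without flox 3 with the length trend removed, and ran from 0 to 6 when single libraries were left out. The weights were 4.75 for flox 1, 0.172 for flox 2 and 0.108 for flox 3, so that fit sets HKO libraries almost wholly against flox 1. Cathepsins without overlap numbered 3 as TPM and 7 after removal of the length trend, against 6 as deposited, beside 4.24%, 16.5% and 16.7% of all tested genes.

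Of all tested genes, 2 passed. The count was 5 as TPM, 7757 with library weights, 16 at a threshold of 0.1, 4602 without flox 3 with the length trend removed, and 0 without flox 2 and HKO 3 together, where 1097 genes had an unadjusted p below 0.05. Leaving out single libraries gave 0 to 5575. It was 0 without flox 1 and without HKO 2, where 1904 and 1236 genes had an unadjusted p below 0.05, and 1 without HKO 3. With the replicate number as a block the count was 1, both as deposited and with the length trend removed, and 0 cathepsins passed. Deviations of same-numbered libraries correlated at -0.042, -0.090 and 0.070 for numbers 1, 2 and 3. The best match of the same HKO library with another flox number gave 0.174, 0.069 and 0.020. With 3 libraries a group, these values cannot settle whether the numbers pair the samples. The removal of the length trend without flox 3, and with the block, was added after seeing the data. With 3 libraries a group and the wide spread between flox libraries, the precision rests on few samples, and *Ctse*, with 14 to 35 reads per library, was limited by depth.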
